A study of Mus musculus with 4 samples.

Results

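Serine proteases at epithelial surfaces and the inhibitors that restrain them were followed in mouse mammary cells with and without ΔNp63, a p63 isoform lacking the N-terminal activation domain and found in basal cells of many epithelia. The set comprised 10 genes, named one by one, of the 54393 genes in the deposited count table. It held the transmembrane proteases Tmprss11g, Tmprss4 and St14, the lipid-anchored protease Prss8, the kallikreins Klk8, Klk10 and Klk11, and the inhibitors Spink5, Spint1 and Spint2. Spink5 and Tmprss11g were chosen by their measured levels, which were low in both knockout libraries, so their genotype difference is described here with no test. The other 8 genes were not picked for their levels, but the whole set was chosen with earlier results of these data known.

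There were 4 RNA sequencing libraries, 1 per genotype and time point: conditional knockout (Dnp63 cKO, here cKO) at 5 weeks, cKO at 10 days, wild type (WT) at 5 weeks and WT at 10 days. All mice received tamoxifen at puberty (4 weeks), and the times count from that treatment. Deletion was driven by an inducible keratin 14 Cre (iK14-Cre; DNp63 f/f), so recombination was directed to keratin 14 expressing cells, and the labels do not say which of these alleles the WT animals carried. Cells bearing CD45, CD31 or Ter119 were removed from digested glands and 100000 of the remaining cells went into each library. The labels list gland ages that cannot all be reached from these times, so age was not used. Whether each library had its own animal or animals is not said. With 1 library per genotype and time point, no group held repeat libraries. The error behind the main p-values below is how far the genotype and time effects fail to add up, moderated across genes. It measures neither technical nor animal-to-animal variation by itself.

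Total counts ran from 31714181 to 34230566 in the cKO libraries and from 33363255 to 79122250 in the WT libraries. Trp63 stood at 25.5 and 12.8 CPM (counts scaled to library size) in cKO at 5 weeks and 10 days, and at 160.5 and 46.8 CPM in WT, in the direction of the genotype labels. Of 10 luminal epithelial markers all were detected in every library, with sums of 7340 to 9800 CPM in cKO and 8590 to 8880 CPM in WT. The 8 basal and myoepithelial markers summed to between 2170 and 2310 CPM in cKO and between 5680 and 16600 CPM in WT, where Krt5 and Krt14 made up most of the 5-week sum. The myoepithelial genes Acta2, Myh11, Mylk and Oxtr did not follow that sum, and all 4 were higher in cKO at 5 weeks and lower in cKO at 10 days. Acta2, for example, stood at 771.5 and 624 CPM in cKO at 5 weeks and 10 days and at 690.3 and 1267 CPM in WT. The libraries were not epithelium alone, since 8 fibroblast markers summed to between 38400 and 60400 CPM in cKO and between 31600 and 39400 CPM in WT. Despite the removal of CD45 and CD31 cells, 8 leukocyte markers summed to 110.3 and 84.1 CPM in cKO and to 37.8 and 49.6 CPM in WT, and 7 endothelial markers to 264 and 166 CPM in cKO and to 156 and 117 CPM in WT. Both sums were higher in both cKO libraries, and their part in the results below was not tested. In such mixtures, fewer cells of a type and less RNA per cell cannot be told apart.

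Trypsin-like serine proteases are made as inactive precursors and are switched on by cleavage, often by one another. In surface epithelia, matriptase (St14) and prostasin (Prss8) form such a cascade and act on channels, receptors and adhesion proteins at the cell membrane, where the Kunitz-type inhibitors HAI-1 (Spint1) and HAI-2 (Spint2) hold them back. In stratified epithelia such as epidermis, secreted kallikreins cut the junctions between shedding cells, and the Kazal-type inhibitor LEKTI (Spink5) limits them. Loss of SPINK5 in people causes Netherton syndrome, a disorder of skin shedding and barrier.

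The 10 genes fell into a widely spaced range of levels, and which genes stood high depended on the library. Levels of different genes are compared as CPM per kilobase of merged exons. Spint2 and St14 led in every library, at 37.9 and 34.9 CPM per kilobase in cKO at 5 weeks, 50.03 and 49.8 in cKO at 10 days, 56.9 and 52.5 in WT at 5 weeks, and 59.4 and 50.4 in WT at 10 days. In cKO the mean order continued with Spint1, Prss8, Klk11, Tmprss4, Klk10, Klk8, Spink5 and Tmprss11g. In WT it continued with Spint1, Spink5, Prss8, Tmprss4, Tmprss11g, Klk10, Klk11 and Klk8. Spink5 was thus ranked 9 in cKO and 4 in WT, and Tmprss11g 10 in cKO and 7 in WT. The WT place of Spink5 rested on the 5-week library, with 31.6 CPM per kilobase there and 2.63 at 10 days. In cKO, ranges over the 2 libraries overlapped between Spint2 and St14, St14 and Spint1, Klk11 and Tmprss4, Tmprss4 and Klk10, Klk8 and Spink5, and Spink5 and Tmprss11g. In WT they overlapped between Spink5 and Prss8, Prss8 and Tmprss4, Tmprss4 and Tmprss11g, and Tmprss11g and Klk10. The other neighbours in each order did not overlap.

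**Figure D1:**
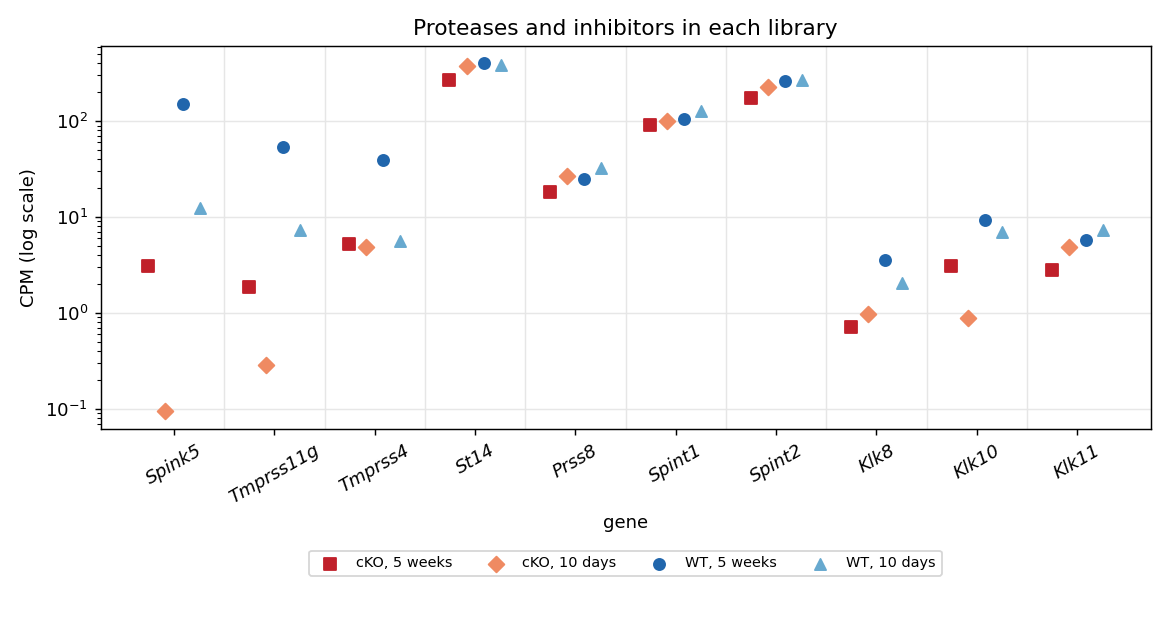
Level of each of the 10 genes in each of the 4 libraries, in CPM on a log axis, with cKO libraries left of WT libraries within each gene. Spink5 spans from 0.0944 to 151 CPM, while St14, Prss8, Spint1 and Spint2 lie close together across libraries.

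Promoter windows from RefSeq (GRCm38.p6, 250 bases before to 50 after the start of transcription) were found for 6 of the 10 genes, namely Tmprss11g, Spint1, Spint2, Klk8, Klk10 and Klk11, the last with 2 starts, so that there were 7 windows. The upstream 250 bases are shown for a pair of genes with low cKO levels, Tmprss11g and Klk10, and for the inhibitor pair Spint1 and Spint2, whose levels differed little, because their base composition differs visibly. Capitals mark CpG dinucleotides, and each sequence runs 5′ to 3′ on the strand of the gene.
Tmprss11g: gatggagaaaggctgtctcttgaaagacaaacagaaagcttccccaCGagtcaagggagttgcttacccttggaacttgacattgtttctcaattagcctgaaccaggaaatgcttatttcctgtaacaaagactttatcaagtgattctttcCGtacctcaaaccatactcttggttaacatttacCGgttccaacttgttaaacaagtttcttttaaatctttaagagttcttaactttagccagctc
Klk10: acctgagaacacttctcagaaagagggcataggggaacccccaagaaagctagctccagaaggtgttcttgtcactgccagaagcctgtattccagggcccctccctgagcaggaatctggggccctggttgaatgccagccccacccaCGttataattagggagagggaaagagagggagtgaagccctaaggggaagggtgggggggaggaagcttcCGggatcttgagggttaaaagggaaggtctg
Spint1: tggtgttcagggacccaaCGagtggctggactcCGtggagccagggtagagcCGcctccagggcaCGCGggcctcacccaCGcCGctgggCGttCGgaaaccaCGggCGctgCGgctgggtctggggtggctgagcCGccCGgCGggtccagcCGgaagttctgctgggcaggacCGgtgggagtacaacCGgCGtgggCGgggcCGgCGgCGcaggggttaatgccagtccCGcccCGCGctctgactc
Spint2: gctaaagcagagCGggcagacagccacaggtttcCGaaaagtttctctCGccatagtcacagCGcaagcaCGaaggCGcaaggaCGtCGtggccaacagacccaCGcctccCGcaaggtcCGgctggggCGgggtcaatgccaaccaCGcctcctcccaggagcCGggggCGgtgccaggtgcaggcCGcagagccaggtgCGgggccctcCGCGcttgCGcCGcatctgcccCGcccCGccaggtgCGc

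The Tmprss11g stretch lies at chr5:86518601-86518850 on the minus strand, that of Klk10 at chr7:43780804-43781053 on the plus strand, that of Spint1 at chr2:119237110-119237359 on the plus strand and that of Spint2 at chr7:29281978-29282227 on the minus strand. Over the whole 300-base window, Tmprss11g had 3 CpG and 39.7% G or C, and Klk10 had 2 CpG and 57.3%. Spint1 had 28 CpG and 69.7% G or C, and Spint2 had 26 CpG and 69.3%. The median of all 32851 windows was 7 CpG and 52.7%. The split did not follow the cKO difference in every case, since Klk8, lower in cKO, had 23 CpG and 65.3%, and the Klk11 windows had 4 and 2 CpG. A core of the p53 family motif, CATGNNNNNNCATG, which reads the same on both strands, was in none of the 7 windows and in 0.712% of all windows. Its looser form CNNGNNNNNNCNNG was in all 7 but also in 70.2% of all windows, and it includes every match of the stricter form.

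Spink5, which encodes the multidomain Kazal inhibitor LEKTI (ENSMUSG00000055561.9, GRCm38 chromosome 18, 43963235 to 44022501), was the gene with the widest range. It had 104 and 3 counts in cKO at 5 weeks and 10 days, or 3.06 and 0.0944 CPM, against 11612 and 433 counts in WT, or 151 and 12.6 CPM. Both cKO libraries lay below both WT libraries, and within each genotype the 5-week library was the higher. At 5 weeks the cKO level was 49.3-fold lower than WT, with an exact 95% interval of 40.7 to 60.4. At 10 days it was 133-fold lower, and with only 3 counts the interval ran from 45.2 to 648. These intervals are conditional binomial and, like all intervals here, cover counting error only. The model gave a log2 fold change of -5.95 with an SE of 0.376, from 2 libraries of each genotype. Genotype fits with a library left out, here and below, also lack the time term, so they mix genotype with time. Without cKO at 5 weeks the estimate was -9.73, with cKO at 10 days set against WT at both times. Without WT at 5 weeks it was -2.98, with both cKO libraries set against WT at 10 days.

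Tmprss11g, a type II transmembrane serine protease of the HAT/DESC subfamily (ENSMUSG00000079451.9, chromosome 5, 86485876 to 86518600), had 63 and 9 counts in cKO at 5 weeks and 10 days, or 1.86 and 0.283 CPM. In WT it had 4138 and 254 counts, or 53.8 and 7.37 CPM. The cKO level was 29.0-fold lower than WT at 5 weeks (22.6 to 37.8) and 26.0-fold lower at 10 days (13.5 to 57.6), so the difference was of like size at both times within counting error. The fitted log2 fold change was -4.79 (SE 0.303), and it ranged from -6.75 to -2.77 when 1 library was left out, the smallest without WT at 5 weeks.

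The sum of markers of stratified squamous epithelium moved with both genes, though single markers did not all do so. The 13 such markers summed to 239 and 174 CPM in cKO at 5 weeks and 10 days, and to 4880 and 973 CPM in WT at the same times. All 13 were detected in each library except Sprr1b, which had 0 counts in cKO at 10 days. Krt6a was the largest part of each sum, at 2471 CPM in WT at 5 weeks. Krt6a and Lor in cKO and Sprr1b in WT were lower at 5 weeks than at 10 days. Sbsn differed little by genotype, at 30.9 and 19.7 CPM in cKO and 40.6 and 21.7 CPM in WT. The part of the 13 markers in the Spink5 and Tmprss11g differences was not tested. Relative to Krt13, a keratin gene of squamous linings such as the oesophagus, Spink5 had 59.4 and 14.3 counts per 100 in cKO and 42.2 and 23.3 in WT at 5 weeks and 10 days. Tmprss11g had 36.0 and 42.9 per 100 Krt13 counts in cKO and 15.1 and 13.7 in WT. In cKO at 10 days these ratios rested on 3 Spink5, 9 Tmprss11g and 21 Krt13 counts. Set against Epcam, a general epithelial adhesion gene, Spink5 instead had 0.535 and 0.0123 counts per 100 in cKO and 26.3 and 1.49 in WT.

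The genes whose profiles lay nearest to these were looked for among 15478 other tested genes with a mean of at least 1 CPM, by Euclidean distance of centred log2 CPM over the 4 libraries. For Spink5 they were Sprr2a2 (0.682), Sprr2a3 (1.07), Tmprss11b (1.23), Krt13 (1.29) and Sptssb (1.45). Sprr2a2 and Sprr2a3 are small proline-rich cornified envelope genes with near-identical copies, so reads may be shared between them. For Tmprss11g they were Teddm3 (0.180), the keratinocyte differentiation gene Krtdap (0.528), Sprr2g (0.627), Sptssb (0.631) and the desmosomal cadherin gene Dsg3 (0.670). Tmprss11g was at rank 11 from Spink5, and Spink5 at rank 42 from Tmprss11g, with a distance of 2.02. Teddm3, Sprr2g and Sptssb passed the filter on low counts through their WT libraries. Their closeness to a gene chosen for low cKO levels was thus partly built in. With 4 libraries the distances are a description only.

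**Figure D2:**
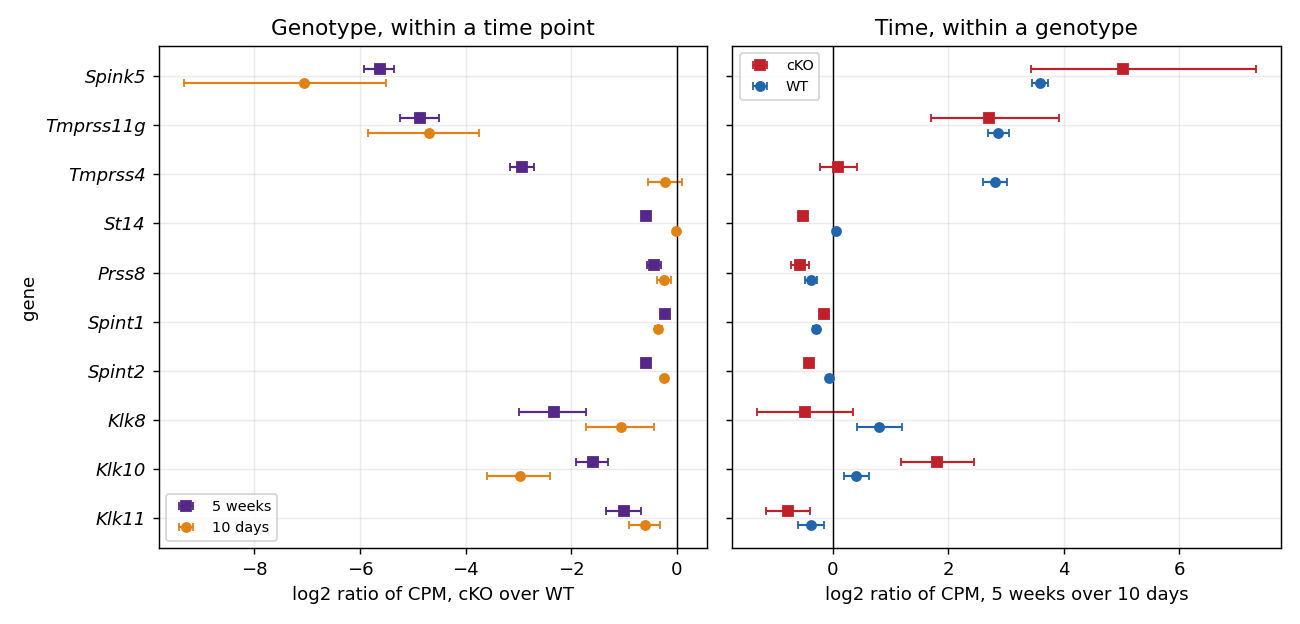
Log2 ratios of CPM for the 10 genes, cKO over WT within a time point (left) and 5 weeks over 10 days within a genotype (right), with exact 95% counting intervals and 1 library on each side. Spink5 and Tmprss11g lie far below 0 at both times on the left, Tmprss4 only at 5 weeks, and St14, Prss8, Spint1 and Spint2 lie near 0.

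The other 8 genes were all lower in cKO in the fitted estimate, where 9564 of the 18917 genes tested were. None of the 8 passed the test. In edgeR's quasi-likelihood test 0 of the 8 had an adjusted p under 0.05, where 0.0581% of the 18917 genes tested did (11 genes) and 0.0529% were lower in cKO (10 genes). Unadjusted p-values under 0.05 were reached by 2 of the 8, Klk10 and Klk8, where 5.80% of all genes were lower in cKO at that level. DESeq2 called 1 of the 8, Klk10, where it called 2.71% of all genes (512). With no filter on low counts edgeR called 3 of the 8 (Tmprss4, Klk8 and Klk10), where 3.71% of all genes were called (1235). For 7 of the 8 both cKO libraries lay below both WT libraries, against 23.3% of all genes. Prss8 was the exception. The median log2 fold change of the 8 was -0.62, and that of all genes tested was -0.01. A log2 ratio of -1 or lower was reached by 4 of the 8 at 5 weeks (Tmprss4, Klk8, Klk10 and Klk11), where 6.54% of all genes did. At 10 days it was reached by 2 of the 8 (Klk8 and Klk10), where 7.45% of all genes did.

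Matriptase and its partners had the smallest estimates. St14, which encodes matriptase (ENSMUSG00000031995.9, chromosome 9, 31089402 to 31131853), stood at 266 and 380.0 CPM in cKO at 5 weeks and 10 days and at 401 and 385 CPM in WT. At 10 days the genotypes differed by less than counting error (log2 ratio -0.02, interval -0.05 to 0.02), while at 5 weeks cKO was 1.51-fold lower (1.47 to 1.54). Its fitted log2 fold change was -0.31 (SE 0.268, adjusted p = 0.717 by edgeR), and it was -0.07 without cKO at 5 weeks. Prss8, the GPI-anchored protease prostasin (ENSMUSG00000030800.10, chromosome 7, 127925716 to 127930104), stood at 18.4 and 27.0 CPM in cKO and at 24.9 and 32.2 CPM in WT, and the ranges overlapped (an estimate of -0.35 with SE 0.220 and adjusted p = 0.606). Exons of Prss8 overlap those of Kat8 on the other strand, and the labels do not record a strand setting, so its counts are uncertain.

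Spint1, the inhibitor HAI-1 (ENSMUSG00000027315.13, chromosome 2, 119237362 to 119249527), stood at 90.5 and 99.7 CPM in cKO at 5 weeks and 10 days and at 105 and 128 CPM in WT. Its log2 fold change was -0.29 (SE 0.192, adjusted p = 0.625 by edgeR). Spint2, the inhibitor HAI-2 (ENSMUSG00000074227.12, chromosome 7, 29256323 to 29281912), stood at 173 and 228 CPM in cKO and at 259 and 271 CPM in WT, with a log2 fold change of -0.42 (SE 0.230, adjusted p = 0.550). The cKO libraries were below the WT libraries for both inhibitors, by less than a log2 ratio of 1 at either time. Within a library the balance of inhibitor to protease, per kilobase, stayed in a narrow range. Spint1 over St14 was 0.939 and 0.724 in cKO at 5 weeks and 10 days and 0.724 and 0.917 in WT, and Spint2 over St14 was 1.09 and 1.01 in cKO and 1.08 and 1.18 in WT. Spint2 over Prss8 was 3.82 and 3.43 in cKO and 4.23 and 3.42 in WT. No order of the genotypes held at both times for the Spint1 to St14 ratio. When 1 library was left out the genotype estimates stayed negative, between -0.65 and -0.10 for Prss8, -0.42 and -0.15 for Spint1, and -0.63 and -0.24 for Spint2.

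Tmprss4, a type II transmembrane serine protease (ENSMUSG00000032091.15, chromosome 9, 45172726 to 45204092), was set apart by 1 library. It stood at 5.21 and 4.88 CPM in cKO at 5 weeks and 10 days, against 39.8 and 5.69 CPM in WT. At 5 weeks cKO was 7.64-fold lower than WT (6.56 to 8.94), and at 10 days the interval of the log2 ratio, -0.54 to 0.09, included 0. The fitted log2 fold change was -1.60 (SE 0.831, adjusted p = 0.568 by edgeR). With WT at 5 weeks left out it was -0.17. With WT at 10 days left out it was -2.98 with an adjusted p of 0.0311, in a fit with 1 WT library and no time term that called 0.305% of all genes (61) and assumes that the lone library varies like the cKO pair. Tmprss4 shares exonic positions with an antisense transcript, so part of its counts is uncertain.

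Of the 3 kallikreins described first, Klk10 had the largest fitted estimate and Klk8 the larger ratio at 5 weeks. Klk10 (ENSMUSG00000030693.10, chromosome 7, 43781035 to 43785410), a secreted kallikrein-related peptidase, had 104 and 28 counts in cKO at 5 weeks and 10 days, or 3.06 and 0.881 CPM, and 711 and 240 counts in WT, or 9.25 and 6.97 CPM. The cKO level was 3.02-fold lower at 5 weeks (2.46 to 3.75) and 7.90-fold lower at 10 days (5.33 to 12.1). The log2 fold change was -2.25 (SE 0.471, adjusted p = 0.237 by edgeR and 0.00554 by DESeq2). It was -3.22 without cKO at 5 weeks and -1.42 without cKO at 10 days. Klk8 (ENSMUSG00000064023.4, chromosome 7, 43797577 to 43803826), also called neuropsin, had 24 and 31 counts in cKO and 272 and 70 in WT. In CPM these were 0.707 and 0.976 in cKO and 3.54 and 2.03 in WT. The level was 5.01-fold lower in cKO at 5 weeks (3.29 to 7.95) and 2.08-fold lower at 10 days (1.35 to 3.29), and the log2 fold change of Klk8 was -1.69 (SE 0.514, adjusted p = 0.344 by edgeR). Klk11 (ENSMUSG00000067616.11, chromosome 7, 43774604 to 43779263) stood at 2.83 and 4.82 CPM in cKO and at 5.71 and 7.37 CPM in WT, a log2 fold change of -0.81 (SE 0.345, adjusted p = 0.453), which lay between -1.22 and -0.46 when 1 library was left out. The cKO libraries were the lower ones for all 3 kallikreins. Klk8 shares exonic positions with an RNA on the opposite strand.

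The choice of genes did not use the difference between times since tamoxifen. It did use the levels in both cKO libraries, which enter this comparison. The time p-values of Spink5 and Tmprss11g are thus not independent of that choice. With genotype held constant, 0 of the 10 genes passed an adjusted p of 0.05 for 5 weeks against 10 days in edgeR, where 0.0634% of all genes did. Spink5 and Tmprss11g were the 2 of 10 with an unadjusted p under 0.05, where 5.35% of all genes had one. Spink5 was higher at 5 weeks with a log2 fold change of 3.89 (SE 0.353, adjusted p = 0.0741 by edgeR), and Tmprss11g with 2.81 (SE 0.286, adjusted p = 0.0896). With other scalings in edgeR the adjusted p was 0.116 and 0.162 for Spink5 and 0.129 and 0.146 for Tmprss11g. DESeq2, which called 1.01% of all genes for time (192), gave adjusted p = 4.89e-15 for Spink5 and 1.03e-08 for Tmprss11g. Limma-voom, which called 0.206% (39), gave 0.0441 for Spink5 and 0.0669 for Tmprss11g. With no filter on low counts edgeR called 1.91% of all genes (638), with Spink5, Tmprss11g and Tmprss4 among them. With WT at 5 weeks left out, and no genotype term, both estimates turned negative, at -1.05 for Spink5 and -1.04 for Tmprss11g. Within cKO, the log2 ratio of 5 weeks over 10 days was 5.02 for Spink5 (interval 3.43 to 7.32) and 2.71 for Tmprss11g (1.70 to 3.91). Within WT it was 3.59 for Spink5 (3.45 to 3.73) and 2.87 for Tmprss11g (2.69 to 3.06). A log2 ratio of 1 or higher over time was reached in cKO by 3 of the 10 genes (Spink5, Tmprss11g and Klk10), where 6.02% of all genes did. In WT it was reached by 3 of the 10 (Spink5, Tmprss11g and Tmprss4), where 7.00% of all genes did. The stratified squamous markers summed higher at 5 weeks in both genotypes too, as given above, though Krt6a and Lor in cKO and Sprr1b in WT were lower. The part of these markers was not tested.

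The remaining 8 genes had no common direction over time. Tmprss4 had a log2 ratio of 0.10 in cKO (interval -0.22 to 0.42) and of 2.81 in WT (2.60 to 3.02). Klk10 was higher at 5 weeks in both genotypes, 3.48-fold in cKO (2.27 to 5.48) and 1.33-fold in WT (1.15 to 1.54). St14 had log2 ratios of -0.51 in cKO and 0.06 in WT, and Prss8 of -0.56 in cKO and -0.37 in WT. Klk11 was lower at 5 weeks in both, with log2 ratios of -0.77 in cKO and -0.37 in WT. Whether the time effect differed between genotypes could not be tested, since 4 libraries in 4 groups leave no residual.

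The chromosomal neighbours of Tmprss11g are genes of the same subfamily. The 7 Tmprss11 genes of the annotation lie within 514.3 kb of chromosome 5 (86231481 to 86745815) on 1 strand. Their counts summed to 283 and 23 in cKO at 5 weeks and 10 days and to 13603 and 835 in WT. These sums include Tmprss11g, which was chosen for its low cKO levels, and 5 of the 7 genes passed the filter on low counts. Tmprss11b held most of the counts, with 5.45 and 0.283 CPM in cKO and 113 and 15.3 CPM in WT (log2 fold change -4.86, adjusted p = 0.0673 by edgeR). Tmprss11d had 0.471 and 0.0944 CPM in cKO and 6.86 and 0.784 CPM in WT, and Tmprss11a had 2 and 1 counts in cKO and 132 and 13 in WT. Tmprss11a passed the filter through its WT libraries. Tmprss11e overlapped between genotypes (0.471 and 0.0315 CPM in cKO, 0.807 and 0.261 CPM in WT). Tmprss11f, at 1 and 0 counts in cKO and 24 and 4 in WT, and Tmprss11c, at 0 in all libraries, were below the filter. These paralogs are related in sequence, so some reads may have been shared out by the counting model.

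**Figure D3:**
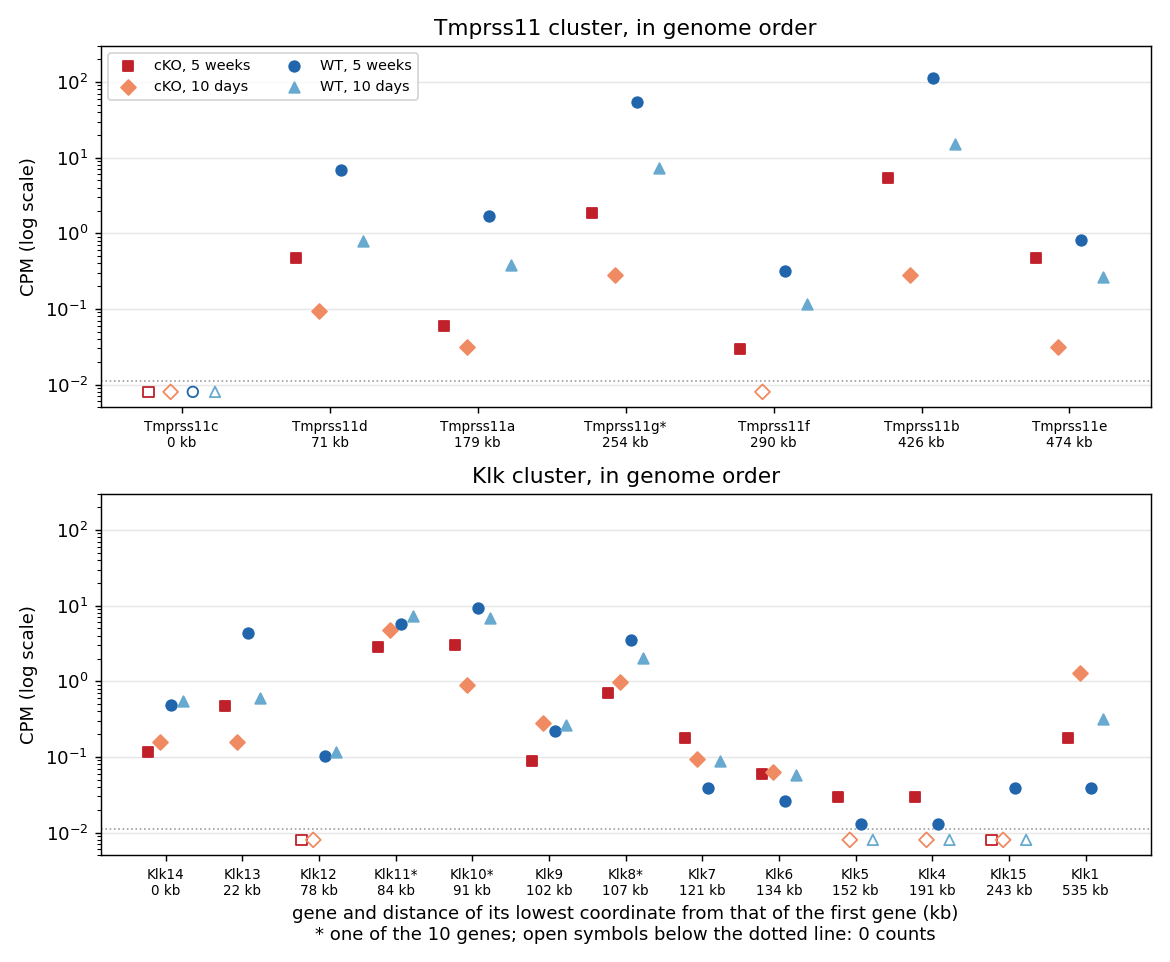
CPM on a log axis for the Tmprss11 genes of chromosome 5 (top) and the kallikrein genes of chromosome 7 (bottom) in genome order, 1 symbol per library, with cKO left of WT. In the upper panel Tmprss11g and Tmprss11b are the most abundant and their cKO symbols lie below their WT symbols. In the lower panel Klk11, Klk10 and Klk8 lie above most of their neighbours.

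Most genes of the kallikrein cluster had few counts. Of 13 numbered Klk genes on chromosome 7, 6 passed the filter on low counts: Klk8, Klk10, Klk11, Klk13, Klk14 and Klk1. Klk13 had 16 and 5 counts in cKO at 5 weeks and 10 days and 338 and 21 in WT (log2 fold change -2.71, adjusted p = 0.238 by edgeR). Klk14 had 4 and 5 counts in cKO and 37 and 19 in WT (log2 fold change -1.90, adjusted p = 0.353). Klk14 passed the filter through its WT libraries, and Klk13 needed its WT libraries to pass. Klk1 went the other way, with 6 and 41 counts in cKO and 3 and 11 in WT (log2 fold change 2.04, adjusted p = 0.327), and its groups overlapped. The enzymes that LEKTI is best known to inhibit in human epidermis, KLK5 and KLK7, had mouse counterparts at very low counts. Klk5 had 1 and 0 counts in cKO and 1 and 0 in WT, and Klk7 had 6 and 3 in cKO and 3 and 3 in WT.

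Other families of the same biology were read from lists of textbook members, and in none of the 8 lists did a gene pass the adjusted threshold in edgeR in either direction. Among 18 further transmembrane serine proteases 9 were tested, 7 of them with negative estimates, where 9564 of all 18917 genes tested had one. The 7 include Tmprss11a, Tmprss11b, Tmprss11d and Tmprss11e, paralogs of the chosen Tmprss11g. The median log2 fold change of the list was -0.80, and -2.63 without cKO at 5 weeks. The most abundant was Tmprss2, with 554 and 492 CPM in cKO and 545 and 167 CPM in WT (log2 fold change 0.79, adjusted p = 0.570), followed by Tmprss13 (46.8 and 42.2 CPM in cKO, 65.4 and 40.2 CPM in WT) and Tmprss11b, described above. Of 9 prostasin-like and tryptase-like proteases 5 were tested (median -0.54, and 0.25 without WT at 5 weeks). Prss22 stood at 25.2 and 27.5 CPM in cKO and 65.8 and 22.3 CPM in WT, Prss27 at 0.118 and 0.755 CPM in cKO and 1.47 and 1.80 CPM in WT, and the mast cell tryptase gene Tpsb2 at 1.80 and 1.23 CPM in cKO and 0.416 and 0.348 CPM in WT. The 6 mast cell markers, Tpsb2 among them, summed to 153 and 290 CPM in cKO and 159 and 346 CPM in WT, nearly all of it Kit, which luminal progenitors also express. The more specific markers were higher in both cKO libraries, with Cpa3 at 1.89 and 1.32 CPM in cKO and 0.325 and 0.377 CPM in WT, and Mcpt4 at 2.39 and 1.95 CPM in cKO and 0.403 and 0.668 CPM in WT. Their part in the Tpsb2 values was not tested.

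Among other inhibitors, few Kazal genes could be tested. Of 11 further Kazal inhibitor genes only Spink10 was tested (log2 fold change -0.44, adjusted p = 0.820). Its cKO over WT log2 ratio was 0.11 at 5 weeks and -1.13 at 10 days. With a library left out the filter was applied again, so the genes behind the list median could change. That median then ran from -4.56 to -0.33 and need not describe Spink10. Spink12 had 86 counts in WT at 5 weeks and was at 0 in the other 3 libraries. Of 14 WAP and Kunitz inhibitor genes 10 were tested, with a median of -0.10. App stood at 960.2 and 961 CPM in cKO and 952 and 1257 CPM in WT, Aplp2 at 421 and 446 CPM in cKO and 399.5 and 484 CPM in WT, and Wfdc2 at 193 and 324 CPM in cKO and 269 and 103 CPM in WT. Of 24 serpin genes 16 were tested, 3 of them lower and 2 higher in cKO at an unadjusted p under 0.05, where 5.80% of all genes were higher at that level, with a median of 0.30, which was -0.03 with no filter and -0.04 without cKO at 5 weeks. The abundant Serping1, the C1 inhibitor gene, stood at 1017 and 1124 CPM in cKO and 747 and 478 CPM in WT (log2 fold change 0.84, adjusted p = 0.429). Serpinh1 stood at 982 and 584 CPM in cKO and 556 and 583 CPM in WT, and Serpinf1 at 863 and 652 CPM in cKO and 607 and 604 CPM in WT. Fibroblasts, which express these serpins, were abundant in every library, and the part of the cell mix was not tested.

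Substrates and receptors of the membrane cascade had a median log2 fold change of -0.25, which was -0.57 without WT at 10 days and -0.09 without cKO at 5 weeks. All 13 listed genes were tested and 8 had negative estimates, where 9564 of all 18917 genes tested had one. Both cKO libraries lay below both WT libraries in 5 of the 13, against 23.3% of all genes. At an unadjusted p under 0.05, 4 were lower in cKO (F2rl1, Mst1, Cdcp1 and Scnn1g), where 5.80% of all genes were. None passed the adjusted threshold. Mst1, the gene of a growth factor of the hepatocyte growth factor family and chosen after its values were seen, stood at 0.295 and 0.157 CPM in cKO and 3.93 and 0.494 CPM in WT (log2 fold change -2.87, adjusted p = 0.284 by edgeR). Mst1 passed the filter on low counts through its WT libraries. Epcam, which matriptase can cleave, stood at 572 and 769 CPM in cKO and 575 and 842 CPM in WT (log2 fold change -0.07, adjusted p = 0.948 by edgeR). Cdcp1, another cleaved surface protein, stood at 140 and 146 CPM in cKO and 263 and 210.0 CPM in WT (log2 fold change -0.72, adjusted p = 0.356). Chosen after its values were seen, F2rl1, the protease-activated receptor PAR2, stood at 20.9 and 22.9 CPM in cKO and 44.4 and 43.1 CPM in WT, a log2 fold change of -0.997 (SE 0.214, adjusted p = 0.241 by edgeR).

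Epidermal targets of the kallikrein and LEKTI axis were sparse. Of 13 listed genes 6 were tested, with a median log2 fold change of -1.25 that became -3.67 with cKO at 5 weeks left out, or 0.79 with WT at 5 weeks left out. The desmosomal cadherin gene Dsg1b, whose protein kallikreins cut in epidermis, stood at 0.884 and 0.189 CPM in cKO and 12.4 and 5.34 CPM in WT (log2 fold change -4.21, adjusted p = 0.0947 by edgeR). The transglutaminase gene Tgm1 stood at 108 and 150 CPM in cKO and 283 and 112 CPM in WT. Cst6, a cysteine protease inhibitor gene, stood at 1.77 and 0.409 CPM in cKO and 84.0 and 0.203 CPM in WT, so its high value came from WT at 5 weeks alone. Cornified genes of the list such as Flg, Flg2 and Hrnr had between 0 and 4 counts in any library.

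**Figure D4:**
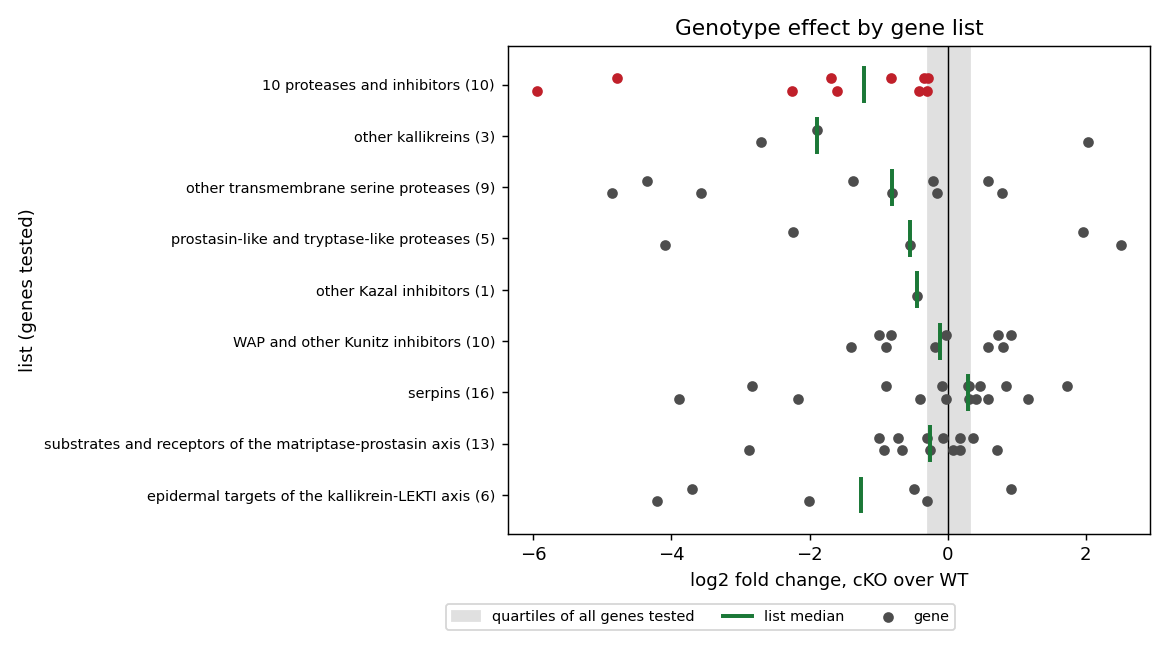
Log2 fold change of genotype, cKO over WT, for each tested gene of the 10 described and of 8 related lists, with the list median as a bar and the quartiles of all genes as a band. The 10 genes all lie below 0 with a median of -1.21, 2 of them having been chosen for that, and the serpins and WAP inhibitors lie on both sides of 0.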

How the data were processed

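Messenger RNA was measured in 4 libraries of sorted mouse mammary cells, 1 per genotype and time point. The authors deposited estimated counts per gene as whole numbers, unnormalised. Per the submitters' processing notes, Salmon (no version) and the build GRCm38 were used. The labels record neither the annotation nor the strand setting. All 54393 identifiers matched GENCODE M21, which supplied symbols, positions and exon lengths, and 0 columns belonged to other samples.

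The 10 genes and all lists were chosen with earlier results of these data known, and other neighbouring genes named were chosen by position. From each list the 3 genes with the highest mean CPM were named, and any that passed the test, except 1 gene that is not reported here. After filterByExpr with a minimum count of 10, 18917 genes remained, the 10 among them. Some genes, such as Tmprss11a, Klk14 and Mst1, passed this filter through their WT libraries, so a negative estimate was partly built in. Others, such as Spink5, Tmprss11g, Tmprss11b, Tmprss11d, Klk13, Prss27, Dsg1b and Serpinb10, needed their WT libraries to pass. The quasi-likelihood test of edgeR 4.0.16 in R 4.3.3 was run with TMM factors, robust dispersion, and time point plus genotype as terms, leaving 1 residual degree of freedom. The Benjamini-Hochberg adjustment took in every tested gene, with a threshold of 0.05. SEs are the absolute log2 fold change over the square root of F. Shares of all genes past a log2 ratio were taken from log2 CPM (prior count 2). Intervals of ratios between libraries are exact conditional binomial 95% intervals on counts and TMM-scaled sizes. Within each genotype neither library was a copy of the other. Chi-square over its degrees of freedom was 92.4 between the cKO libraries and 172.5 between the WT libraries. Pairs across genotypes were not compared in this way. Time point is the block, as it holds 1 library of each genotype.

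The fit was tested on simulated counts. Alternatives were other scalings, DESeq2 1.42.0, limma-voom (limma 3.58.1), no filter, no block, and each library left out. Fits with a library left out kept only the term tested and applied the filter again, so list medians there may rest on other genes. Protein sequences were not used here.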

Additional observations from a re-analysis of the deposited data

Results flagged for a closer look

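For 4 of the related genes described above the cKO over WT log2 ratio had opposite signs at 5 weeks and 10 days, each with a counting interval off 0. The difference between time points was not tested, because each side holds 1 library per genotype. Prss22, a tryptase-like serine protease gene, had -1.38 at 5 weeks and 0.31 at 10 days. Tgm1 had -1.40 at 5 weeks and 0.42 at 10 days. Wfdc2, a WAP-domain gene, had -0.48 at 5 weeks and 1.66 at 10 days. Aplp2 had 0.08 at 5 weeks and -0.12 at 10 days. None of the 10 proteases and inhibitors met this rule. Spink5 and Tmprss11g, chosen for low levels in both cKO libraries, could hardly do so. The 10-day intervals of St14 and Tmprss4 included 0, so neither of these could meet it.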

How the results depend on the processing

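The number of genes called for genotype, 11 in edgeR, was 5 with DESeq2's size factors, 3 with upper-quartile factors, 512 with DESeq2, 29 with limma-voom and 1235 with no filter. Without the time point as replicate block it was 0, although 2182 genes had an unadjusted p under 0.05. With 1 library dropped and no block, it was 0 to 61. For time, 12 genes in edgeR became 192 with DESeq2, 39 with limma-voom, 638 with no filter, 1 with no genotype term and 0 to 19 with a library left out. The causes were not tested. With no filter, adjusted p-values passed for genotype in Tmprss4 (0.00591), Klk8 (0.0385) and Klk10 (2.82e-05), and for time in Tmprss4 (0.0226). The genotype estimates of the 8 genes other than Spink5 and Tmprss11g were negative in every alternative. Those of Spink5 and Tmprss11g were too, but that sign followed from how these genes were chosen.

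The time estimates turned sign for 7 genes when a library was left out, in fits that also lack the genotype term. They ran from -1.05 to 9.64 for Spink5, -1.04 to 6.62 for Tmprss11g, -0.02 to 2.90 for Tmprss4, -0.52 to 0.05 for St14, -0.53 to 0.04 for Spint2, -1.08 to 1.21 for Klk8 and -0.36 to 2.81 for Klk10. Without WT at 5 weeks such a fit sets cKO at 5 weeks against both genotypes at 10 days. Depth limits Spink5 most, since its 3 counts in cKO at 10 days allow 0.0195 to 0.276 CPM (exact Poisson 95% interval).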

Other observations

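Clade B serpins are mostly intracellular inhibitors. Of 9 tested, both cKO libraries lay below both WT libraries in 3 and above them in 2, against 23.3% and 22.6% of all genes. With so few genes, these counts are not read as a result about the family. The genes named here were chosen after their values were seen. Serpinb10 had 12 and 7 counts in cKO at 5 weeks and 10 days and 565 and 75 in WT, giving a log2 fold change of -3.89 (SE 0.517, adjusted p = 0.125 by edgeR). Serpinb11 had 132 and 22 counts in cKO and 1066 and 388 in WT, giving a log2 fold change of -2.84 (SE 0.639, adjusted p = 0.287). Serpinb3a, which has close paralogs, was at 0 in both cKO libraries and had 97 and 8 counts in WT. Serpinb5, the gene of maspin, stood at 69.2 and 57.4 CPM in cKO and 126 and 108 CPM in WT, giving a log2 fold change of -0.89 (SE 0.188, adjusted p = 0.237). The 2 higher in cKO were Serpinb6a, at 204 and 157 CPM in cKO and 150 and 112 CPM in WT (log2 fold change 0.47, adjusted p = 0.459), and Serpinb9, at 40.0 and 26.9 CPM in cKO and 19.5 and 24.5 CPM in WT (log2 fold change 0.59, adjusted p = 0.512). None of these genes passed the threshold.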
